A study of Homo sapiens with 96 samples.

Results

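Chlorpyrifos, an organophosphate insecticide, was given to differentiating human neural cultures at a concentration labelled IC5, and the 8 exposed libraries were compared with the 8 libraries of unexposed cultures. These 16 libraries were chosen by their group labels from the 96 of the series. The series used neural progenitor cells derived from the established human embryonic stem cell line H9, and differentiated them to day 10 into a co-culture of neurons and astrocytes in medium with glial and brain-derived neurotrophic factors, dibutyryl cyclic AMP and ascorbic acid. Messenger RNA was sequenced from the progenitors, from unexposed day 10 cultures and from cultures exposed to 1 of 5 compounds at 2 concentrations, labelled IC5 and IC20/100. These labels read as the concentration for 5% inhibition and the concentration for 20% inhibition diluted 100-fold. Neither the molar doses nor how long cultures were exposed is stated in the sources used here.

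The control group was the co-culture at day 10 with no compound. Chlorpyrifos was dissolved in dimethyl sulfoxide (DMSO), which reached 0.25% of the medium. The sources used here do not say whether control medium also contained DMSO, so in every difference from control the compound and its solvent cannot be told apart. The low-concentration groups of chlorpyrifos, fluoxetine (an antidepressant) and methylmercury held the same 0.25% DMSO, and direct tests against them are given for that reason. Each group's 8 libraries are technical replicates from a single experiment with this 1 cell line, so every p-value here measures only the spread between those libraries.

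Chlorpyrifos is activated in the body to its oxon, which inhibits acetylcholinesterase, the enzyme that clears acetylcholine at the synapse, and it can also bind other serine hydrolases. The genes described first belong to the integrated stress response. In that pathway amino acid shortage, misfolded protein in the endoplasmic reticulum (ER) or mitochondrial stress slows general protein synthesis while the transcription factor ATF4 is made, and ATF4, with its partner CHOP, switches on genes for amino acid uptake and synthesis. In differentiating neural cells radial glia genes mark the progenitors, proneural transcription factors mark cells that leave the cycle, and transmitter and synapse genes mark the neurons that follow.

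The recovered whole reads came to 16.9 to 26.9 megareads per control library and 11.4 to 24.0 megareads per chlorpyrifos IC5 library. The libraries were spread over 6 sequencing runs, and each run held libraries of both groups. Methylmercury IC20/100 replicate 8, a library of the shared fit but not of this comparison, stood apart from all others in its deposited total, and without it 4794 genes were called between chlorpyrifos IC5 and control in place of 3962. Neuronal genes were abundant in both groups: MAP2, a dendritic microtubule protein, had a mean of 17970 ± 955 (SD, n = 8) in control and 17810 ± 813 (SD, n = 8) after chlorpyrifos. GFAP, the defining filament protein of astrocytes, was low, at 8.37 to 48.6 in control and 11.4 to 53.9 after chlorpyrifos. P2RY12 and C1QA, defining microglial markers, were at 0 in all 16 libraries. Values are the deposited counts divided by a library size factor, and levels are not scaled to gene length, so they are compared between libraries and not between genes.

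Of 20136 genes tested, 1998 (9.92%) were higher and 1964 (9.75%) were lower after chlorpyrifos IC5 at an adjusted p under 0.05 (limma, Benjamini-Hochberg adjustment over all genes, with sequencing run as a term). The changes of at least 1.5-fold leaned to falls, with 259 genes (1.29%) higher and 558 (2.77%) lower, together 817 (4.06%). The 8 chlorpyrifos libraries lay wholly above the 8 control libraries for 390 genes (1.94%) and wholly below them for 476 (2.36%). Of the 3962 genes called in all (19.7%), 3023 moved the same way in all 6 sequencing runs. The median log2 fold change over all genes was -0.00, and every list of genes below is read against that median and these percentages. In bulk libraries fewer cells of a type and less RNA per cell cannot be told apart, which holds for each gene below. The plot of list members shows amino acid, stress and p53 genes to the left, DNA replication genes to the right, and the neural lists spread around 0.

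**Figure D1:**
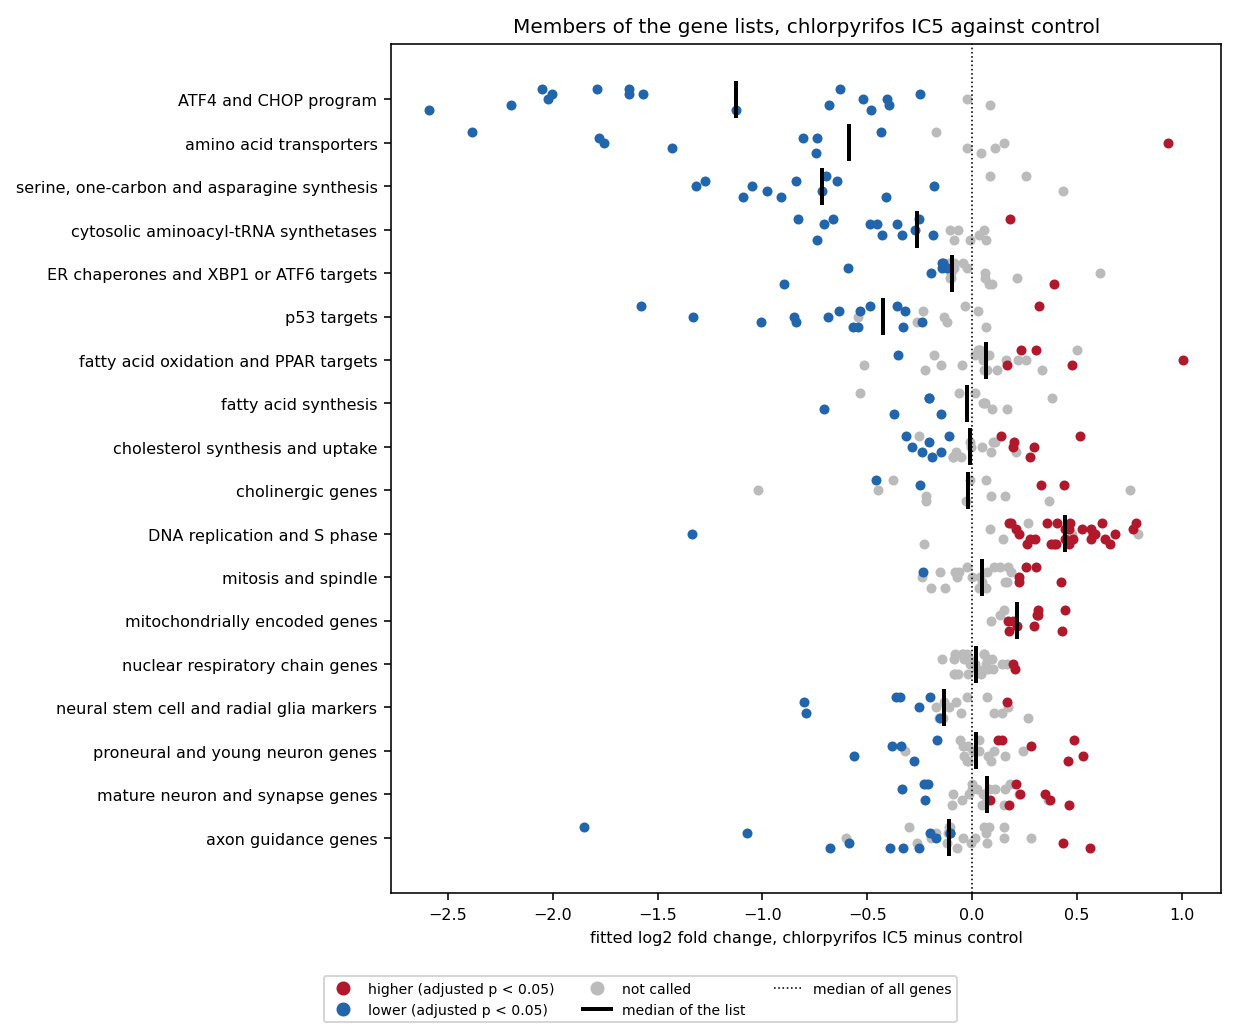
Fitted log2 fold change of each tested member of 18 gene lists, chlorpyrifos IC5 minus control (8 libraries each); points are genes, coloured by whether they passed an adjusted p under 0.05, black bars are list medians and the dotted line is the median of all genes. The ATF4 and CHOP list has its median at -1.13 and the DNA replication list at 0.44, while the lists for cholesterol, cholinergic and nuclear respiratory chain genes have medians within 0.03 of 0.

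The transcriptional program of ATF4 and CHOP was lower after chlorpyrifos IC5. Of 19 tested members, 17 fell and none rose, with a median log2 fold change of -1.13, and for 16 of them the 8 exposed libraries lay wholly below the 8 controls. CEBPB, a transcription factor that pairs with ATF4 and CHOP, ranged from 92.4 to 154 (median 127) in control and from 18.5 to 32.9 (median 26.5) after chlorpyrifos. No exposed library reached the lowest control, and the fitted change was -2.20 ± 0.13 (SE, adjusted p = 8.01e-24), a 4.59-fold lower level. CHAC1, which degrades glutathione, went from 294 to 461 (median 371) down to 71.7 to 103 (median 86.4), again without overlap (log2 -2.05 ± 0.11, adjusted p = 6.54e-26). TRIB3, a pseudokinase induced by ATF4 that feeds back on it, went from 349 to 663 (median 483) to 105 to 133 (median 116), a 4.01-fold lower level (adjusted p = 7.15e-23). The transcription factors of the program fell by different amounts.

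DDIT3, which encodes CHOP, lay between 384 and 700 (median 591) in control and between 152 and 217 (median 177) after chlorpyrifos (log2 -1.63 ± 0.11, adjusted p = 1.22e-20). ATF3 lay between 386.5 and 883 (median 551) in control and between 155 and 291 (median 176) after chlorpyrifos (log2 -1.64 ± 0.15, adjusted p = 7.38e-15). ATF4 itself changed far less: 5050 to 5736 (median 5398) in control against 4360 to 4751 (median 4570) after chlorpyrifos. The 2 groups did not overlap for ATF4, and its fitted change was -0.25 ± 0.06 (SE, adjusted p = 0.000449). ATF4 is controlled largely at translation, which messenger RNA levels do not show. ATF5, a related factor also translated under stress, fell further, from 1059 to 1665 (median 1321) to 272 to 369 (median 327; log2 -2.02 ± 0.10, adjusted p = 1.26e-27).

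GDF15, a secreted stress cytokine, had the largest fitted fall of any protein-coding gene named here at -2.59 ± 0.48 (SE, adjusted p = 2e-05), and its libraries were uneven. Its values were 87.5 to 603 (median 180) in control and 18.1 to 287 (median 23.6) after chlorpyrifos, so the groups overlapped. A single exposed library, replicate 7, held the value of 287, and without it the fitted change was -3.01. Replicate 7 of chlorpyrifos IC20/100 was high too, at 280.9. STC2, a secreted glycoprotein induced by ER stress, lay at 472 to 1111 (median 771) in control and at 129 to 307 (median 216) after chlorpyrifos, with no overlap (log2 -1.79 ± 0.25, adjusted p = 5.05e-08).

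**Figure D2:**
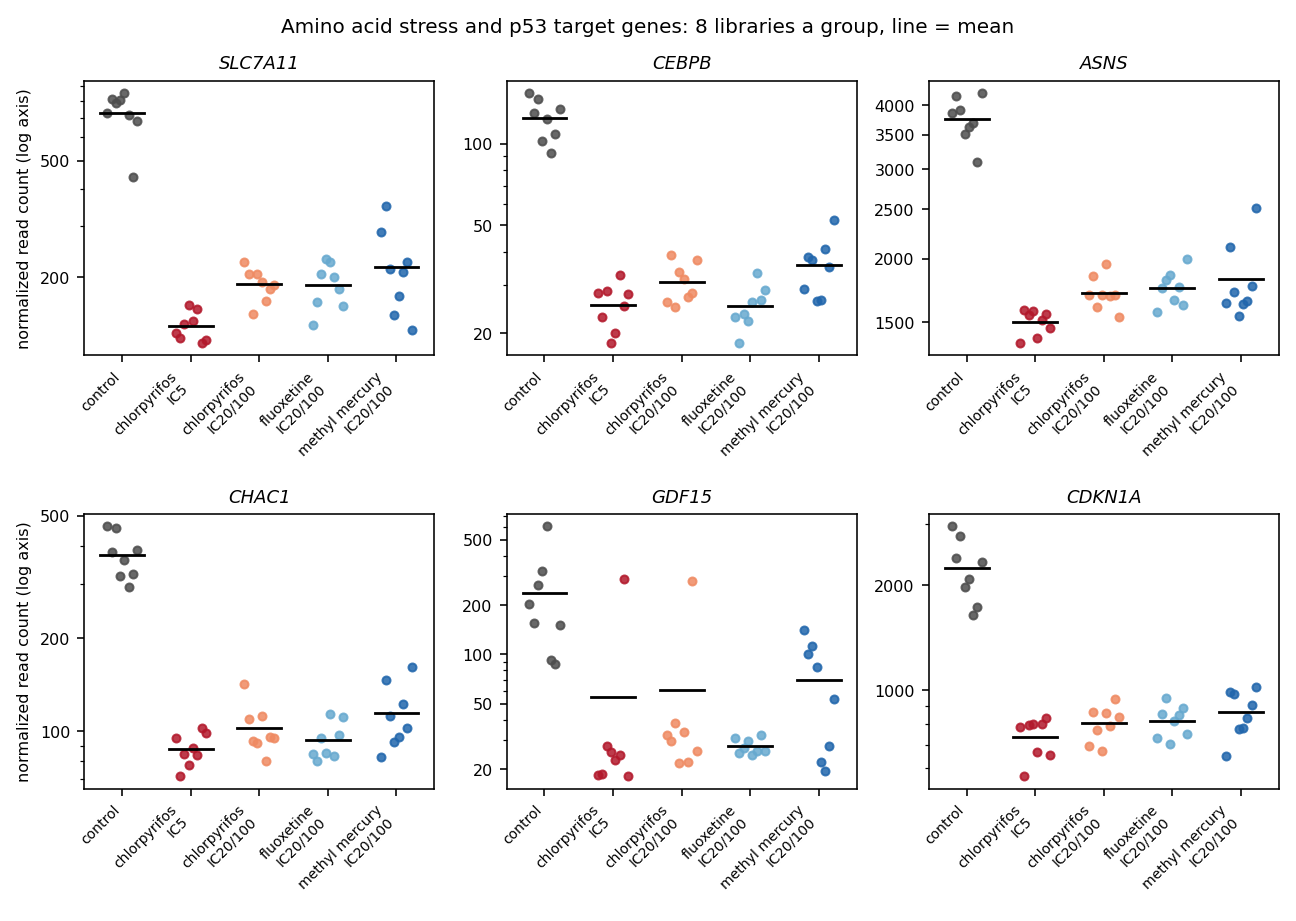
Deposited normalized counts, on log axes, of SLC7A11, CEBPB, ASNS, CHAC1, GDF15 and CDKN1A in control, chlorpyrifos IC5 and the low-concentration groups of chlorpyrifos, fluoxetine and methylmercury; each point is 1 of 8 libraries a group and lines are means. CEBPB lies between 18.5 and 32.9 in every chlorpyrifos IC5 library and at 92.4 or above in every control library.

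Short stretches of promoter are printed for 1 called gene from each of the ATF4 and CHOP, amino acid transporter and serine-asparagine synthesis lists, because these genes fell together and ATF4-type factors with C/EBP partners bind a composite element. The motif searched was TGATGNAA on either strand, with N any base; it was found in 6 of the 28 called members of those lists that had a promoter in the RefSeq table (21.4%), in 1003 of all 27305 promoters (3.67%) and in 218 of the 12526 promoters of genes tested (1.74%). The 6 were ASNS, ATF3, CHAC1, MTHFD1L, SLC3A2 and SLC7A1. These lists hold genes of the ATF4 response and of amino acid uptake and synthesis, which ATF4 is known to switch on. A larger share than among all promoters is therefore built into the choice of genes and is not a result of these libraries. Members that were not called were not set beside them. Each sequence covers 250 bases before to 50 bases after the RefSeq transcription start (build GRCh38.p14), 5′ to 3′ on the gene's strand, and capitals mark the motif. CHAC1 lies on the plus strand at chr15:40953221-40953520 with the motif on the opposite strand, SLC7A1 on the minus strand at chr13:29595639-29595938, and ASNS on the minus strand at chr7:97872359-97872658.
CHAC1: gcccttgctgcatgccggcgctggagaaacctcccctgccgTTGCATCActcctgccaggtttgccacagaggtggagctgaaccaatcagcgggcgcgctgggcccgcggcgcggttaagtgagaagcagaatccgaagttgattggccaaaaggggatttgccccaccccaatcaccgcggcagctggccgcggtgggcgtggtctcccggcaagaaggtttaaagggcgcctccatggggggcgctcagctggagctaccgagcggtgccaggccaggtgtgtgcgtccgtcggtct
SLC7A1: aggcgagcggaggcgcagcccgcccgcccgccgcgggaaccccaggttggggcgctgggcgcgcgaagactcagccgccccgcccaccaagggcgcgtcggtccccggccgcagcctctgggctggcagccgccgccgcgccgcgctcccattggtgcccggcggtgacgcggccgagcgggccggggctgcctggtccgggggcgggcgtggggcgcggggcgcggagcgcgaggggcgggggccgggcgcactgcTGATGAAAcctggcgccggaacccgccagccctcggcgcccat
ASNS: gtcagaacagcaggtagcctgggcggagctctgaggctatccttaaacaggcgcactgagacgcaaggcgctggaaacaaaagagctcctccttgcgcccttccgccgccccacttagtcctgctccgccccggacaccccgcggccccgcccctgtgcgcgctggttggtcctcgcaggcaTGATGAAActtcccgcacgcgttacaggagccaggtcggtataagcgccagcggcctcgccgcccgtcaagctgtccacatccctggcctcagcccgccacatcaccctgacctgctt
A match is a description of these letters and not a measured binding site, and the other 22 promoters merely lack them in this window. The 3 printed genes fell by 2.05, 0.75 and 1.32 on the log2 scale in that order, and all 6 with the motif fell by between 0.75 and 2.05. The 22 without it ran from a fall of 2.59 (GDF15) to a rise of 0.93 (SLC43A1). Whether the motif went with the size of the change was not tested.

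Amino acid transporters were mostly lower. Of 14 tested, 8 fell, 1 rose and 5 did not pass the test, with a median log2 fold change of -0.59. SLC7A11, the cystine and glutamate exchanger that supplies cysteine for glutathione, went from 439.6 to 851 (median 758) in control to 119.5 to 160.4 (median 134) after chlorpyrifos. The groups were far apart, with a 5.22-fold lower level (log2 -2.38 ± 0.13, adjusted p = 6.97e-26). SLC7A5, the large neutral amino acid transporter, went from 3573 to 5982 (median 4271) to 1150 to 1423 (median 1295; log2 -1.75 ± 0.11, adjusted p = 2.48e-23). Its heavy chain SLC3A2 fell from 4215 to 5769 (median 4817) to 2570 to 3003 (median 2773; log2 -0.81 ± 0.08, adjusted p = 4.83e-14). SLC7A1, the cationic amino acid transporter, fell from 1884 to 2409 (median 2206) to 1230 to 1385 (median 1268; log2 -0.75 ± 0.06, adjusted p = 2.24e-18). These 3 genes had no overlap between groups.

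SLC1A5, the glutamine transporter, was uneven: 1323 to 4302 (median 3055) in control and 650.0 to 1561 (median 697) after chlorpyrifos, where replicate 5 alone held the value of 1561. The groups overlapped through that library, and the fitted change of -1.78 ± 0.39 (SE, adjusted p = 0.00028) was -1.99 without it. The only riser was SLC43A1, another large neutral amino acid transporter, at low levels of 6.58 to 16.5 (median 8.96) in control and 11.4 to 54.3 (median 18.5) after chlorpyrifos (log2 0.93 ± 0.27, adjusted p = 0.00736).

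Enzymes that make serine, asparagine and folate-carried carbon units fell as well. Of 15 tested, 12 fell and none rose, with a median of -0.71. ASNS, asparagine synthetase, went from 3092 to 4228 (median 3778) in control to 1369 to 1587 (median 1532) after chlorpyrifos, a 2.49-fold lower level with no overlap (log2 -1.32 ± 0.07, adjusted p = 4.26e-26). The mitochondrial folate enzymes followed: ALDH1L2 fell by 1.27 (SE 0.12), SHMT2 by 1.09 (SE 0.07) and MTHFD1L by 0.84 (SE 0.13) on the log2 scale, with no overlap in any of them, and MTHFD2 was 2.07-fold lower. PCK2, the mitochondrial enzyme that makes phosphoenolpyruvate, was outside this list and was 1 of the 12 largest falls, from 373.5 to 604 (median 431.5) to 74.1 to 131.5 (median 87.8; log2 -2.25 ± 0.17, adjusted p = 2.02e-18).

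Cytosolic aminoacyl-tRNA synthetases, which load amino acids onto transfer RNA, moved in the same direction by less: 12 of 20 fell, 1 rose and the median was -0.26. AARS for alanine fell from 4006 to 5231 (median 4669) to 2506 to 2785 (median 2628; log2 -0.83 ± 0.06, adjusted p = 4.96e-20). YARS for tyrosine (log2 -0.74 ± 0.04) and CARS for cysteine (log2 -0.71 ± 0.13) also had no overlap between groups. FARSB, a phenylalanine synthetase subunit, was the member that rose (log2 0.18 ± 0.04, adjusted p = 9.04e-05).

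Chaperones and targets of the other ER stress branches moved little. Of 22 tested, 7 fell and 1 rose, and the median was -0.09. HERPUD1, an ER degradation factor, fell by 0.90 (SE 0.13) and XBP1, the spliced transcription factor of the IRE1 branch, by 0.59 (SE 0.06) on the log2 scale, both without overlap. HSPA5, the main ER chaperone BiP, lay at 5645 to 6232 (median 5889) in control and 5267 to 5572 (median 5332) after chlorpyrifos, a fall of 0.14 (SE 0.04, adjusted p = 0.00275). PDIA3, a disulfide isomerase, rose instead, from 3723 to 5388 (median 3849) to 4838 to 6505 (median 5526; log2 0.39 ± 0.06, adjusted p = 2.08e-06).

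Targets of p53, the DNA damage and stress regulator, were also lower, with 15 of 24 fallen, 1 risen and a median of -0.42. CDKN1A, the cell cycle inhibitor p21, lay at 1648 to 2950 (median 2206) in control and at 568 to 831 (median 791.5) after chlorpyrifos, with no overlap (log2 -1.58 ± 0.13, adjusted p = 4.47e-17). SPATA18, a mitochondrial quality control gene, fell by 1.33 (SE 0.27, adjusted p = 0.000128) and FAS, a death receptor, by 1.01 (SE 0.22, adjusted p = 0.000294) on the log2 scale, and both overlapped with control. TP53I3, an oxidoreductase, rose (log2 0.32 ± 0.10, adjusted p = 0.0101, but 0.0671 with only the groups compared).

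Other genes among the 12 largest falls were CDC42EP1, a regulator of septins and actin, from 252 to 541.5 (median 354.5) to 68.1 to 123 (median 76.5), UNC5B, a netrin receptor, from 447 to 887 (median 634.5) to 149.8 to 214 (median 164), and TFCP2L1, a transcription factor, from 107 to 275 (median 194) to 36.2 to 63.3 (median 52.3). In all 3 the groups did not overlap, with fitted changes of -2.03, -1.85 and -1.80. CACNA1I, a T-type calcium channel, was uneven in control, where replicates 5 and 7 held 2947 and 3015 while the other 6 held 91.6 to 112 and the exposed libraries 46.1 to 68.1. Its adjusted p of 0.0151 became 0.0857 without control 5 and 0.08 without control 7. The 6 other controls also lay above all 8 exposed libraries.

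The 12 largest rises included CPT1A and FAM111B. CLN3, a lysosomal membrane protein, rose from 180.1 to 334 (median 219) to 343 to 566 (median 419), with no overlap (log2 0.92 ± 0.15, adjusted p = 8.81e-07); its annotation overlaps another gene on the same strand, so its reads may be shared. LRRC17, a secreted leucine-rich protein, rose from 82.0 to 130.4 (median 108) to 136 to 248.5 (median 181; log2 0.82 ± 0.11, adjusted p = 3.82e-08). AMH, anti-Müllerian hormone of the TGF-beta family, rose from 534 to 704 (median 584.5) to 1071 to 1303 (median 1167; log2 0.95 ± 0.08, adjusted p = 3.71e-17), also with no overlap. ZIC4, a zinc finger factor of dorsal neural tissue, rose by 0.91 (SE 0.19) on the log2 scale with overlap. The largest fitted rise, GDF1 at 3.64 ± 0.72 (SE), is uncertain because the gene shares its strand and sequence with CERS1; it lay at 0 to 393 in control and 163 to 498 after chlorpyrifos. The remaining members of the 12 were C3orf62 (0.94 ± 0.22), PGBD2 (0.93 ± 0.26), ZNF114 (0.91 ± 0.22), PFKL, a glycolytic enzyme (0.86 ± 0.25), and LY6G5C (0.82 ± 0.16). PGBD2 held 885 in replicate 8 and 119.5 to 141 in the other exposed libraries; without replicate 8 it gave 0.60 (adjusted p = 0.0542).

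CPT1A, the rate-limiting enzyme that moves long-chain fatty acids into mitochondria for oxidation, was higher at chlorpyrifos IC5. It lay at 231.5 to 388 (median 297) in control and at 446 to 769 (median 595) after chlorpyrifos, with no overlap (log2 1.01 ± 0.13, adjusted p = 3.24e-09). Among all 12 groups of the series its mean was highest here, at 598 ± 109 (SD, n = 8), next to acrylamide IC5 at 529.6 ± 88.9, and the ranges of these 2 groups overlapped. Control, progenitors and acrylamide IC20/100 followed at 295.5 ± 49.3, 292 ± 42.6 and 315 ± 27.9, which do not differ beyond their spread. Methylmercury IC5 at 271 ± 77.6 and valproic acid IC20/100 at 241 ± 42.2 were not separated from control (adjusted p = 0.492 and 0.223 in the same limma fit). The other 5 groups lay lower, between 148.6 ± 26.2 in valproic acid IC5 and 181 ± 39.1 in fluoxetine IC5, with chlorpyrifos IC20/100 at 150.0 ± 11.7.

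Other fatty acid oxidation and PPAR target genes moved little as a group: of 26 tested, 5 rose and 1 fell, and the median was 0.07. After CPT1A the risers were ACADVL, the very long-chain acyl-CoA dehydrogenase (log2 0.48 ± 0.07), SLC25A20, the acylcarnitine carrier (0.30 ± 0.10), ETFA, an electron transfer subunit (0.23 ± 0.06), and PPARD, a lipid-sensing nuclear receptor (0.17 ± 0.04). ETFB, the partner of ETFA, fell by 0.35 (SE 0.09). The call of SLC25A20 ended without control replicate 3 (adjusted p = 0.0536), and that of PPARD with only the groups compared (adjusted p = 0.0513).

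On the side of lipid synthesis, SREBF1, which encodes the transcription factor SREBP1, was lower. Its values were 1219 to 1508 (median 1423) in control and 713 to 1054 (median 810) after chlorpyrifos, with no overlap (log2 -0.71 ± 0.09, adjusted p = 8.65e-10). Its mean of 865 ± 149 (SD, n = 8) was the lowest of the exposed groups, above only the progenitors at 740 ± 76.8. Of 14 fatty acid synthesis genes tested, 5 fell and none rose, with a median of -0.03. Beside SREBF1 these were ME1, malic enzyme (-0.37 ± 0.11), SCD, the stearoyl-CoA desaturase (-0.21 ± 0.03), FADS1, a polyunsaturated fatty acid desaturase (-0.20 ± 0.03), and ELOVL5, an elongase (-0.15 ± 0.03). With only the groups compared the adjusted p of ME1 was 0.0741.

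Cholesterol genes were split, with 6 of 25 higher, 7 lower and a median of -0.01. MVD, mevalonate diphosphate decarboxylase, rose by 0.51 (SE 0.12), while FDFT1, squalene synthase, fell by 0.32 (SE 0.04), both on the log2 scale. FDFT1 had no overlap between groups, and MVD did.

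**Figure D3:**
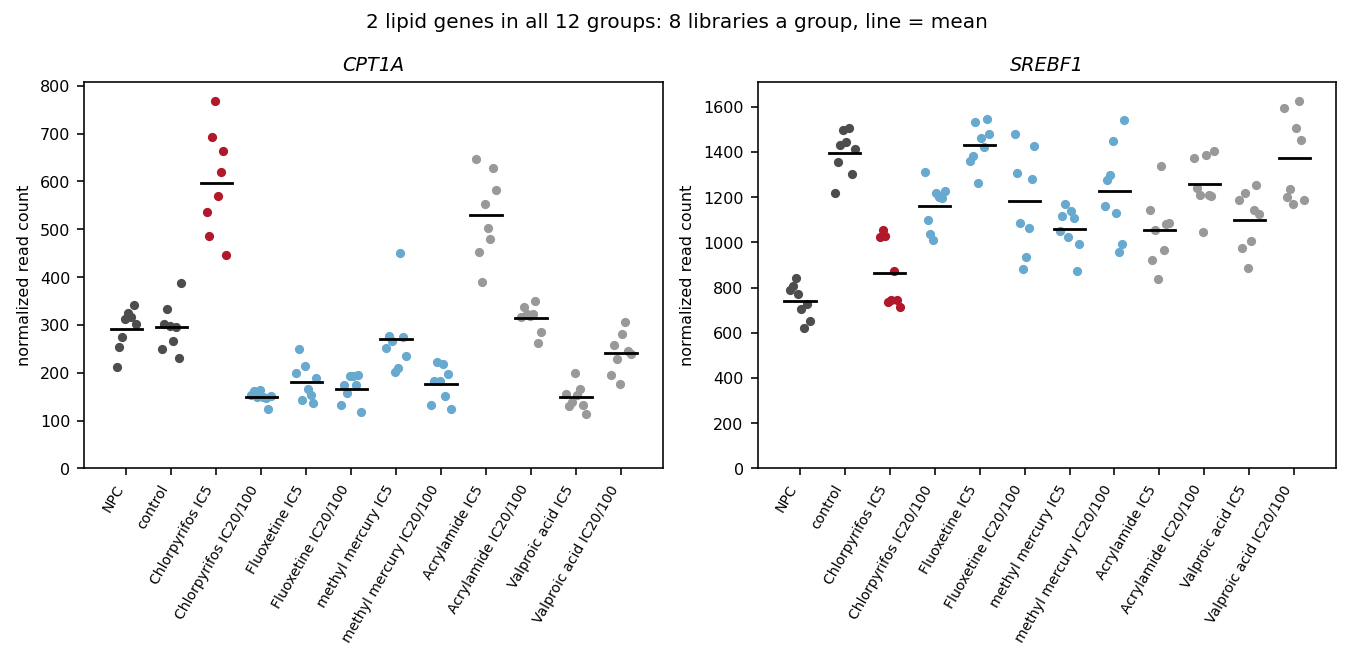
Deposited normalized counts of CPT1A and SREBF1 in every library of the 12 groups; points are libraries and lines are group means, with chlorpyrifos IC5 in red, progenitors and control in dark grey, the other groups with DMSO in blue and the groups dissolved in medium in light grey. For CPT1A the 8 chlorpyrifos IC5 libraries lie at 446 to 769 and the 8 chlorpyrifos IC20/100 libraries at 125 to 164.

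Transcripts of the enzyme that chlorpyrifos is known to block were slightly lower. ACHE, acetylcholinesterase, lay at 157 to 207 (median 179.7) in control and 113 to 156 (median 124) after chlorpyrifos, with no overlap (log2 -0.46 ± 0.12, adjusted p = 0.00254). BCHE, butyrylcholinesterase, lay at 410.2 to 619.8 (median 529) and 324 to 518 (median 446), with overlap (log2 -0.25 ± 0.08, adjusted p = 0.0201). The BCHE call ended without control replicate 2 (adjusted p = 0.0726) or exposed replicate 2 (adjusted p = 0.0837). It also ended with no run term (adjusted p = 0.197), with only the groups compared (0.0616) and with replicate number as a block (0.0828). The ACHE call was kept under every alternative tried. CHAT, the acetylcholine-making enzyme that defines cholinergic neurons, was low in both groups, at 5.60 to 19.9 and 2.44 to 11.4, and did not pass the test (log2 -0.45 ± 0.47, adjusted p = 0.56). Of 16 cholinergic genes tested, 2 rose and 2 fell, with a median of -0.02. The risers were the nicotinic receptor subunits CHRNA3 (0.44 ± 0.14, adjusted p = 0.013) and CHRNB4 (0.33 ± 0.09, adjusted p = 0.00446), which are neighbours in the genome and assemble together. Without control replicate 2 the adjusted p of CHRNA3 was 0.0545.

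Of 13 other serine hydrolases and paraoxonases tested, 3 rose and none fell: LYPLA2, an acyl-protein thioesterase (0.21 ± 0.06), DAGLA, which makes an endocannabinoid (0.19 ± 0.04), and PON2, an intracellular paraoxonase (0.09 ± 0.03), whose call was lost with no run term (adjusted p = 0.113). None of the 12 tested xenobiotic receptors and their targets was called. Among 22 NRF2 and glutathione genes, which respond to oxidants, 4 fell and 1 rose, with a median of 0.02. The falls were HMOX1, heme oxygenase (-0.70 ± 0.17), PIR (-0.49 ± 0.12), NFE2L2, which encodes NRF2 itself (-0.32 ± 0.09), and TKT, transketolase (-0.19 ± 0.05), and PGD of the pentose phosphate pathway rose (0.17 ± 0.03).

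Metallothioneins, small zinc and cadmium binding proteins, were higher at low levels, with 3 of 6 tested risen and none fallen. MT2A lay at 6.51 to 20.4 (median 13.1) in control and 20.8 to 46.9 (median 30.5) after chlorpyrifos, with no overlap (log2 1.22 ± 0.19, adjusted p = 4.12e-07). MT1F (1.48 ± 0.32) and MT1X (1.19 ± 0.30) also rose, but MT1 genes are near-identical copies whose reads can be split between them, and the highest value of either was 29.6. Heat shock genes showed 4 rises and 2 falls among 14, with a median of 0.05. The rises were small, in DNAJB1 (0.25 ± 0.06), HSPA8 (0.22 ± 0.05), DNAJA1 (0.19 ± 0.04) and HSPA1A (0.14 ± 0.05), the last with a near-identical copy. The small heat shock proteins CRYAB (-1.24 ± 0.30, at most 18.6 in any library) and HSPB1 (-0.27 ± 0.09) fell. The call of HSPA1A ended without any of 13 single libraries (adjusted p up to 0.126, without exposed replicate 8). HSPA1A was also not called in edgeR (adjusted p = 0.0525). The call of HSPB1 ended without any of 7 single libraries (adjusted p up to 0.0772, without exposed replicate 4).

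DNA replication and S phase genes were higher after chlorpyrifos IC5. Of 36 tested, 29 rose and 1 fell, with a median of 0.44, and for 5 of them the groups did not overlap. CCNE1, cyclin E1, which drives entry into S phase, lay at 60.3 to 119 (median 80.1) in control and 113 to 197 (median 140.3) after chlorpyrifos (log2 0.78 ± 0.14, adjusted p = 8.82e-06). CCNE2 rose from 51.0 to 172 (median 114) to 147 to 217 (median 199; log2 0.77 ± 0.19, adjusted p = 0.00125). The groups overlapped for both. PCNA, the sliding clamp of DNA polymerase, did not overlap, at 1106 to 1484 (median 1240) and 1687 to 1914 (median 1823; log2 0.52 ± 0.07, adjusted p = 8.9e-09). FAM111B, a protease gene outside the list, went from 121.5 to 239 (median 143) to 280.1 to 377 (median 300.3; log2 0.96 ± 0.12, adjusted p = 1.88e-09).

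The single fall was GINS3, a subunit of the replicative helicase, at 370.0 to 677 in control and 42.8 to 548 after chlorpyrifos (log2 -1.34 ± 0.49, adjusted p = 0.0445). That call was lost in edgeR and DESeq2 and without any of 10 single libraries (adjusted p up to 0.158, without exposed replicate 8). Mitosis genes moved less than replication genes, with 5 of 27 higher, 1 lower and a median of 0.05. MKI67, the proliferation marker Ki-67, rose from 2924 to 3656 (median 3235) to 4107 to 4513 (median 4295), with no overlap (log2 0.42 ± 0.06, adjusted p = 4.12e-07). The others were ASPM (0.30 ± 0.07) and KIF11 (0.26 ± 0.06), both spindle proteins, CCNB1, cyclin B1 (0.22 ± 0.08), and BIRC5, survivin (0.22 ± 0.08), while PLK1, a mitotic kinase, fell by 0.24 (SE 0.06). CCNB1 lost its call without any of 9 single libraries (adjusted p up to 0.0891, without control replicate 4). BIRC5 lost its call without any of 8 (adjusted p up to 0.0954, without control replicate 1).

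**Figure D4:**
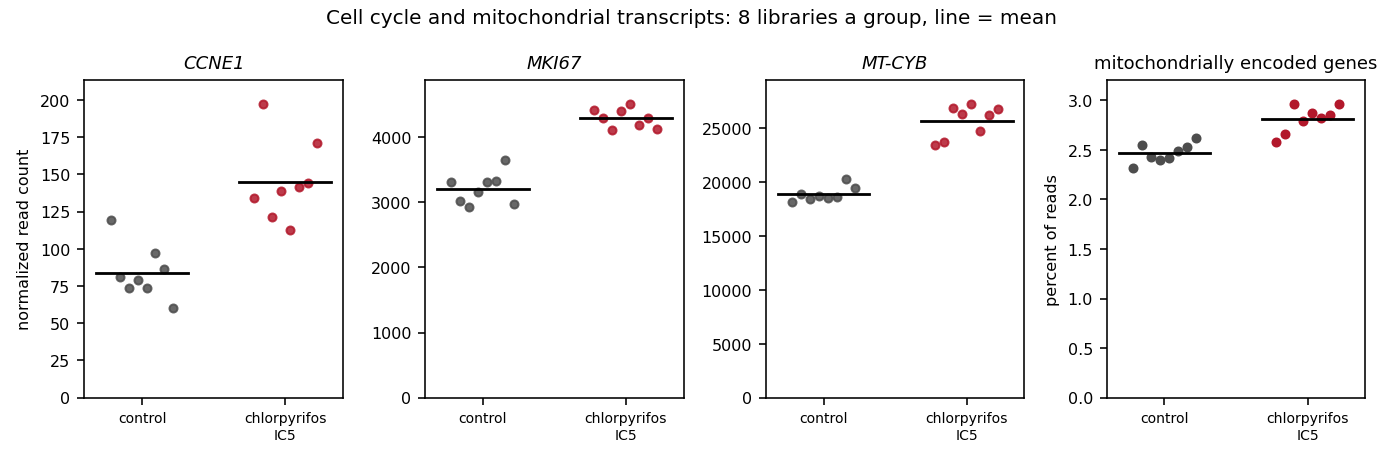
Deposited normalized counts of CCNE1, MKI67 and MT-CYB and the percentage of reads from mitochondrially encoded genes in the 8 control and 8 chlorpyrifos IC5 libraries; points are libraries and lines are means, on axes that start at 0. MKI67 lies at 4107 to 4513 in the chlorpyrifos IC5 libraries and at 2924 to 3656 in control.

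Transcripts of the mitochondrial genome took a larger share of reads. The share was 2.47% ± 0.0963 (SD, n = 8) in control and 2.81% ± 0.135 (SD, n = 8) after chlorpyrifos, a difference of 0.345 percentage points (exact permutation test, two-sided, p = 0.000311, where 8 against 8 allows 0.000155 at the smallest), and it was higher in 6 of 6 runs. Control libraries reached 2.62% and chlorpyrifos IC5 libraries began at 2.58%, so the groups overlapped in this share. At chlorpyrifos IC20/100 the share was 2.64% ± 0.109 (SD, n = 8), and its difference from control was not tested. Of the 13 mitochondrially encoded genes, 10 rose and none fell, with a median of 0.22. MT-CYB, of respiratory complex III, lay at 18210 to 20290 (median 18650) in control and 23470 to 27280 (median 26320) after chlorpyrifos, with no overlap (log2 0.44 ± 0.05, adjusted p = 3.65e-11). Nuclear genes of the respiratory chain did not follow, with 2 of 28 called and a median of 0.02; these were UQCRFS1 and ATP5MC1, both at 0.20. ATP5MC1 lost its call without any of 8 single libraries (adjusted p up to 0.114, without exposed replicate 3).

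Hypoxia and glycolysis genes had 1 rise, LDHA, lactate dehydrogenase (0.33 ± 0.07), and 2 falls, P4HA1, a collagen hydroxylase (-0.40 ± 0.06), and ENO2, the neuronal enolase (-0.38 ± 0.07), among 26. Lysosome genes were split, with 5 of 26 higher and 4 lower. CTSA, cathepsin A (0.59 ± 0.10), ATP6V0D1, a proton pump subunit (0.36 ± 0.06), and the channel MCOLN1 (0.34 ± 0.12) were among the rises. GAA, the acid glucosidase (-0.42 ± 0.08), CTSL, cathepsin L (-0.25 ± 0.08), PSAP, prosaposin (-0.21 ± 0.05), and LAMP2 (-0.17 ± 0.06) fell. The call of MCOLN1 ended without any of 8 single libraries (adjusted p up to 0.0919, without control replicate 8). That of LAMP2 ended without any of 4 (adjusted p up to 0.0674, without exposed replicate 2).

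Neural stem cell and radial glia markers leaned to falls, with 7 of 21 lower, 1 higher and a median of -0.14. FABP7, the fatty acid binding protein of radial glia, lay at 3226 to 3474 (median 3283) in control and 1857 to 1987 (median 1893) after chlorpyrifos, a wide gap between 2 narrow groups (log2 -0.80 ± 0.07, adjusted p = 2.06e-16). LIN28A, which binds RNA and is made by early progenitors, fell from 162 to 219 (median 186.5) to 86.3 to 138 (median 104; log2 -0.79 ± 0.07, adjusted p = 3.87e-14). VIM, vimentin, fell by 0.36 (SE 0.05) without overlap, and SOX2, a stem cell transcription factor, by 0.26 (SE 0.03) with overlap. NES, nestin, was the member that rose, from 14350 to 17270 (median 15340) to 16930 to 18820 (median 17310; log2 0.17 ± 0.04, adjusted p = 0.00101). The summed level of this marker list was 134400 to 146100 in control and 118800 to 126600 after chlorpyrifos, with no overlap. VIM alone lay at 52765 to 57838 in the exposed libraries, so the sum mostly follows abundant members and not the list as a set. Of the 21 markers 13 were not called. The part of these markers in the replication result was not tested.

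Proneural and young neuron genes had 6 rises and 5 falls among 26, with a median of 0.02. NEUROG2, a proneural transcription factor, rose from 138 to 205 (median 183) to 236.5 to 279.5 (median 247), with no overlap (log2 0.48 ± 0.07, adjusted p = 2.35e-08). NEUROD4 (0.53 ± 0.08) and NEUROG1 (0.46 ± 0.11) rose too. TUBB3, neuronal tubulin, rose by 0.12 (SE 0.04, adjusted p = 0.0116, but 0.0847 with no run term), while DCX, doublecortin, gave 0.03 ± 0.06 (adjusted p = 0.765). ONECUT1, a transcription factor of early neurons, fell by 0.57 (SE 0.20, adjusted p = 0.0325), a call that ended without any of 6 single libraries (adjusted p up to 0.0867, without exposed replicate 8).

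Mature neuron and synapse genes showed 7 rises and 4 falls among 29, with a median of 0.07. MAP2 gave -0.01 ± 0.05 (adjusted p = 0.905). The largest rises were NEFH, the heavy neurofilament (0.46 ± 0.11), CPLX1, complexin (0.37 ± 0.12), and CAMK2B, a synaptic kinase (0.35 ± 0.09). Without control replicate 5 the adjusted p of CPLX1 was 0.0588. PCLO, an active zone scaffold, fell by 0.34 (SE 0.08), and NEFL, the light neurofilament, by 0.23 (SE 0.03), from 2433 to 2609 (median 2513) to 1973 to 2314 (median 2131) with no overlap.

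Catecholamine genes went in opposite directions. TH, tyrosine hydroxylase, the first enzyme of dopamine synthesis, lay at 713 to 931 (median 812) in control and 339 to 659.9 (median 423) after chlorpyrifos, with no overlap (log2 -0.89 ± 0.09, adjusted p = 5.49e-13). The highest exposed library was replicate 8, and without it the fitted change was -0.98. DBH, which converts dopamine to noradrenaline, rose from 5.48 to 26.7 (median 9.86) to 22.7 to 45.9 (median 27.4; log2 1.37 ± 0.21, adjusted p = 3.48e-07), and the noradrenaline transporter SLC6A2 rose by 0.80 (SE 0.28, adjusted p = 0.0323), both at low levels and with overlap. In all, 4 of the 19 tested catecholamine and serotonin genes rose and 3 fell. The other risers were LMX1B, a transcription factor of serotonin and midbrain neurons (0.42 ± 0.04, no overlap), and TPH1, tryptophan hydroxylase (0.37 ± 0.09), and PTS, of the enzyme cofactor pathway, fell (-0.25 ± 0.05). SLC6A2 lost its call without any of 9 single libraries (adjusted p up to 0.0822, without control replicate 5). It was also not called in edgeR (adjusted p = 0.0838) or DESeq2 (adjusted p = 0.0772).

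Of 23 GABA and glycine neuron genes tested, 3 rose and 1 fell. GATA2, a transcription factor of some GABA neurons, rose from 4.38 to 17.2 (median 6.67) to 22.9 to 33.7 (median 26.8), with no overlap (log2 1.67 ± 0.23, adjusted p = 2.2e-08), and LHX1 (0.41 ± 0.07) and LHX5 (0.24 ± 0.07) rose with it. GAD1, the GABA-making enzyme, fell by 0.40 (SE 0.10, adjusted p = 0.00159). Glutamate receptor and transporter genes had 5 falls and no rise among 23, with a median of -0.23. GRIN2D, an NMDA receptor subunit, fell by 0.33 (SE 0.06) and GRIK1, a kainate receptor subunit, by 0.34 (SE 0.05), both without overlap. GRM3 (-0.55 ± 0.20), GRIA2 (-0.28 ± 0.10) and GRIK4 (-1.62 ± 0.59) were the other falls, and GRIK4 spanned 86.3 to 1548 among the exposed libraries. The call of GRM3 ended without any of 10 single libraries (adjusted p up to 0.119, without control replicate 5). That of GRIA2 ended without any of 5 (adjusted p up to 0.0803, without exposed replicate 3). That of GRIK4 ended without any of 10 (adjusted p up to 0.107, without control replicate 1).

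**Figure D5:**
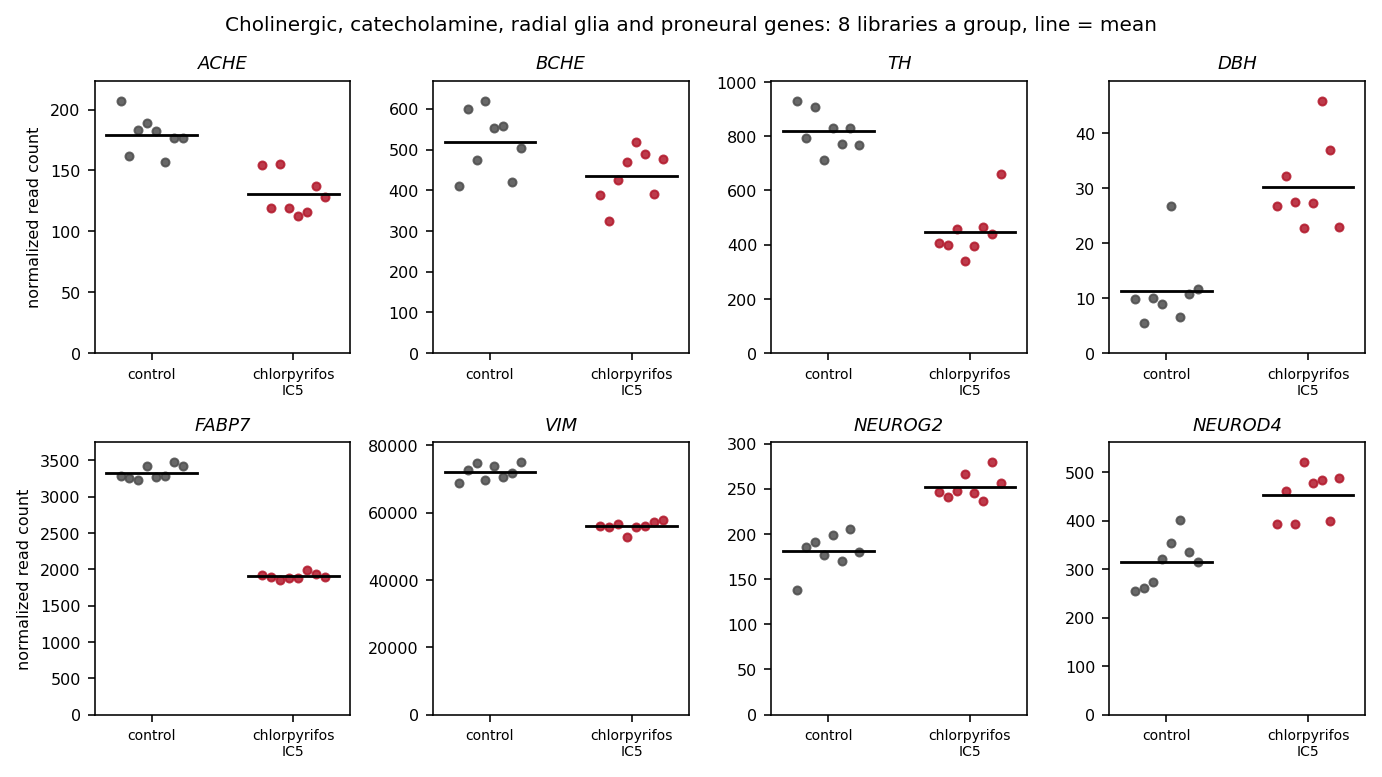
Deposited normalized counts of ACHE, BCHE, TH, DBH, FABP7, VIM, NEUROG2 and NEUROD4 in the 8 control and 8 chlorpyrifos IC5 libraries; points are libraries and lines are means, on axes that start at 0. FABP7 lies at 1857 to 1987 in every chlorpyrifos IC5 library and at 3226 to 3474 in control.

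Markers of other cell types moved in a few genes. Of 18 astrocyte markers tested, 3 fell, which were SPARCL1 (-0.54 ± 0.14), APOE (-0.48 ± 0.13) and FGFR3 (-0.33 ± 0.04), and 1 rose, S100B, from 14.1 to 24.0 (median 19.0) to 24.5 to 36.4 (median 28.3; log2 0.58 ± 0.16, adjusted p = 0.00549). The summed astrocyte level was 18940 to 20890 in control and 15990 to 20430 after chlorpyrifos, and GFAP gave 0.08 ± 0.45 (adjusted p = 0.934). Of 9 oligodendrocyte lineage markers 3 fell and 2 rose: CSPG4 (-0.48 ± 0.13) and SOX10 (-1.40 ± 0.28) were among the falls, and PDGFRA (1.04 ± 0.33) and CNP (0.15 ± 0.06) were the rises. SOX10 reached at most 29.3 in any of the 16 libraries. The call of PDGFRA ended without control replicate 1 (adjusted p = 0.0538), and that of CNP without any of 9 single libraries (adjusted p up to 0.282, without control replicate 2). CSPG4 had an adjusted p of 0.0919 with only the groups compared. Of 10 mesenchymal and pericyte markers ACTA2 (-0.94 ± 0.11) and LUM (-1.09 ± 0.32) fell, and none of 7 endothelial and 5 choroid plexus markers was called. Of 6 pluripotent cell markers, only DNMT3B, which neural progenitors also express, rose (0.11 ± 0.03), with an adjusted p of 0.0551 without exposed replicate 6.

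Axon guidance genes leaned to falls, with 11 of 33 lower, 2 higher and a median of -0.11. Beside UNC5B, SEMA3D, a secreted repellent, fell from 66.7 to 125 (median 83.8) to 34.1 to 49.9 (median 41.2), with no overlap (log2 -1.07 ± 0.19, adjusted p = 9.49e-06), and UNC5A, another netrin receptor, fell by 0.68 (SE 0.13). SEMA3A, a related repellent, rose from 492 to 650.0 (median 528.5) to 652 to 999 (median 830.3; log2 0.56 ± 0.11, adjusted p = 3.7e-05), and EFNB2, an ephrin ligand, rose by 0.43 (SE 0.04), both without overlap.

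Signalling families gave mixed directions. Of 25 BMP and TGF-beta family genes tested, 4 rose, which were AMH, TGFB2 (0.64 ± 0.14), TGFBR2 (0.50 ± 0.16) and GDF11 (0.49 ± 0.06), and 4 fell, which were BMP7, a ligand (-1.14 ± 0.29), NOG, the BMP antagonist noggin (-1.03 ± 0.15), FST, the activin antagonist follistatin (-0.43 ± 0.16), and INHBB, an activin subunit (-0.41 ± 0.06). NOG lay at 80.3 to 110.5 (median 97.9) in control and 37.4 to 52.4 (median 46.3) after chlorpyrifos. Its groups did not overlap, nor did those of BMP7. Of 25 WNT pathway genes, the ligands WNT7A (-0.66 ± 0.08) and WNT7B (-0.40 ± 0.04), the DKK3 gene (-0.31 ± 0.07) and the receptor FZD7 (-0.11 ± 0.04) fell, and TCF7 (0.58 ± 0.15), FZD5 (0.46 ± 0.07), the feedback target AXIN2 (0.25 ± 0.07) and FZD1 (0.22 ± 0.04) rose. Of 18 Notch genes, the transcription factors HEYL (0.50 ± 0.15), HES6 (0.34 ± 0.08) and HEY1 (0.33 ± 0.09), with DTX4 (0.12 ± 0.04) and the ligand DLL1 (0.09 ± 0.03), rose. NRARP (-0.16 ± 0.05) and the receptor NOTCH1 (-0.15 ± 0.05) fell. Among these signalling genes FST, FZD7 and NOTCH1 lost their calls without any of 12, 5 and 14 single libraries, in that order. Their adjusted p reached 0.0944 (without control replicate 5), 0.0737 (without exposed replicate 4) and 0.1 (without exposed replicate 8). HEYL, NRARP and DTX4 lost their calls without control replicate 3 (adjusted p = 0.0513), control replicate 8 (0.0555) and exposed replicate 8 (0.0505). HEYL was also not called in edgeR (adjusted p = 0.0685) or DESeq2 (adjusted p = 0.0856), AXIN2 with only the groups compared (limma, adjusted p = 0.0546) and DLL1 with no run term (limma, adjusted p = 0.086).

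ERK feedback and immediate early genes were lower in 8 of 22, with a median of -0.24. ETV4, a transcription factor downstream of FGF (-0.80 ± 0.16), SPRY4, a feedback inhibitor (-0.74 ± 0.12), and NR4A1, an immediate early factor (-0.61 ± 0.12), had the largest falls, and DUSP4, an ERK phosphatase, was the only rise (0.09 ± 0.02). Of 14 retinoic acid genes tested, 4 fell and none rose, with a median of -0.15. CRABP2, the protein that delivers retinoic acid to its receptor, fell from 501 to 691 (median 580.3) to 224 to 331 (median 276), with no overlap (log2 -1.09 ± 0.09, adjusted p = 7.81e-17). CYP26B1, which degrades retinoic acid, fell by 0.81 (SE 0.15), the receptor RARA by 0.57 (SE 0.08) and CRABP1, another binding protein, by 0.23 (SE 0.07).

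The direct comparison with the lower chlorpyrifos concentration, which holds the same solvent, separated 10 of 20136 genes (0.0497%; 1406 at an unadjusted p under 0.05), 8 of them higher at IC5, and 1 of them (0.00497%) by at least 1.5-fold. CPT1A was far ahead of the rest, 1.98 higher on the log2 scale at IC5 (95% interval 1.73 to 2.24, adjusted p = 2.76e-20), with 446 to 769 at IC5 and 125 to 164 at IC20/100. SREBF1 was 0.46 lower at IC5 (log2 -0.46, adjusted p = 0.00782), with 713 to 1054 against 1010 to 1311. IGFBP5, which binds insulin-like growth factors, was 0.29 higher (adjusted p = 0.000558); it lay at 779 to 880.1 in control and 1141 to 1351 at IC5. The remaining 7 differed by at most 0.25: ARRDC4 (-0.25), PTN (0.24), DSCAM (0.23), MAB21L2 (0.21), EFNB2 (0.19), NEFL (0.16) and DUSP4 (0.13).

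The stress genes were not separated between the chlorpyrifos concentrations by the adjusted p, though some intervals of the difference lay below 0. The log2 difference of IC5 from IC20/100 was -0.41 for SLC7A11 (95% interval -0.67 to -0.15, adjusted p = 0.35), -0.19 for ASNS (-0.33 to -0.05, adjusted p = 0.529) and -0.21 for CHAC1 (-0.43 to 0.01). For CDKN1A it was -0.13 (-0.39 to 0.12), for TH 0.11 (-0.07 to 0.28) and for ACHE 0.12 (-0.11 to 0.36). None of the 19 ATF4 and CHOP genes, 14 transporters, 24 p53 targets and 36 replication genes was called in that comparison. These intervals are not adjusted for the number of genes.

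The levels in the 3 low-concentration groups with the same DMSO, set beside those at chlorpyrifos IC5, were also far from control for several genes, and all of these differences share the same 8 control libraries. SLC7A11 had a median of 134 at chlorpyrifos IC5, 190.5 at chlorpyrifos IC20/100, 190.9 with fluoxetine and 211 with methylmercury, against 758 in control. CDKN1A had medians of 791.5, 817, 834 and 869 in that order, against 2206 in control. For TH the medians were 423, 411, 434 and 420.0, against 812 in control. FABP7 stood at 1893, 1935, 2119 and 2062, against 3283 in control, and ACHE at 124, 121, 127 and 116, against 179.7 in control. For these 5 genes the medians of these 4 groups lay nearer to each other than to control. Fluoxetine IC5 and methylmercury IC5 held the same DMSO but were not set beside them for these genes. Nor were the groups dissolved in medium. How many of all genes had this pattern was not counted, and the part of the solvent was not tested. CPT1A did not have this pattern, with medians of 595, 151, 174.5 and 183, against 297 in control.

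Against fluoxetine IC20/100, 163 genes were called (0.809%; 121 higher and 42 lower), and against methylmercury IC20/100, 628 (3.12%; 319 higher and 309 lower). Most of these differences were under 1.5-fold, since 17 (0.0844%) and 59 (0.293%) genes passed that size. All 3 direct comparisons use the same 8 chlorpyrifos IC5 libraries and are therefore not independent of each other. CPT1A was again higher, by 1.83 and 1.75 on the log2 scale, and SREBF1 lower (-0.45 and -0.53). Against methylmercury 3 of 19 ATF4 and CHOP genes, 2 of 14 transporters, 2 of 15 serine and asparagine enzymes and 0 of 24 p53 targets were called. Among those called, the difference was -0.55 for SLC7A11 (adjusted p = 0.00977), -0.45 for CEBPB (adjusted p = 0.042), -0.37 for CHAC1 (adjusted p = 0.0466) and -0.26 for ASNS (adjusted p = 0.0235). FABP7 (-0.25, adjusted p = 0.0232) and VIM (-0.26, adjusted p = 0.000393) were lower than with methylmercury as well. Against fluoxetine, MT-CYB was 0.24 higher (adjusted p = 0.00351). These counts depend on which libraries share the estimate of spread. With only the 2 groups compared in the fit, 2 genes were called against chlorpyrifos IC20/100, 26 against fluoxetine and 1 against methylmercury; without methylmercury replicate 8 in the shared fit they were 27, 395 and 409.

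Beside CPT1A, genes with a low level led both lists by size. FUT3, a fucosyltransferase, lay at 27.1 to 89.9 (median 59.7) in control and 4.59 to 41.2 (median 13.0) at chlorpyrifos IC5, and it was among the 6 largest differences from both fluoxetine and methylmercury. EFNB2 and NEFL were called against all 3 low-concentration groups.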

How the data were processed

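Messenger RNA was enriched by poly(A) selection and made into stranded libraries, per the labels' protocols. The authors deposited a table of counts per gene divided by a size factor for each library, a signal on a common scale and not raw counts. The submitters' processing notes name bcl2fastq, FastQC 0.11.8, MultiQC 1.0, Salmon 1.3.0, DESeq2 1.30.0 and the genome build GRCh38; the sources used here name no annotation release, and 58171 of 58434 gene IDs matched GENCODE 29. Whole reads were recovered from the deposited steps for 100% of values in every library (tolerance 0.001 of a read), at 9.49 to 29.6 megareads per library. All 140 pairs of libraries checked within groups differed beyond sampling noise (chi-square per degree of freedom at least 16.6).

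Genes that reached a value of 10 in 8 or more of the 88 day 10 libraries were fitted on log2(value + 2) by limma 3.58.1 in R 4.3.3, with a trended prior and group and sequencing run as terms (20136 genes, 72 residual degrees of freedom) and Benjamini-Hochberg adjustment. Fold changes are on that scale, which understates changes of low genes. Intervals are 1.96 SE. Called means an adjusted p under 0.05. The count test on recovered reads, edgeR 4.0.16, called 3921 genes and DESeq2 1.42.0 called 4044, against 3962 with limma. The share of mitochondrial reads was tested with scipy 1.17.1. The scripts were tested on simulated data. Alternatives were other pseudocounts, filters and scalings, no run term, only the groups compared, a replicate block, and each library left out.

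The libraries and the gene lists were chosen with earlier results of these data known. Genes were named by a rule: the 12 largest rises and 12 largest falls among protein-coding genes called at 1.5-fold or more with a mean of at least 100 in the higher group and 1 direction in all 6 runs, the 3 called members of each list with the largest change, 13 marker and target genes whatever they did, and up to 6 genes with the largest difference from each low-concentration group. Genes named to complete a small count, or beside a related gene, fall outside that rule and were chosen after their values were seen; of the rule's genes, not all of the low-level genes that differed from fluoxetine and methylmercury are printed, and some list members are not reported here. Some genes named here (results for 24 of them, among them ASNS, DDIT3, SOX2 and TUBB3) overlap another annotated gene on the same strand, so reads may be shared. Promoters were 250 bases before to 50 after the start, from RefSeq (GRCh38.p14).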

Additional observations from a re-analysis of the deposited data

Results flagged for a closer look

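Single libraries that stood apart from the other 7 of their group were looked for in each gene named, by the gap to the nearest library over the range of the group (Dixon's 95% criterion). Such gaps were found in 33 of 380 combinations of gene and group (8.68%). The criterion gives about 1 in 20 for independent values with a normal spread. These values were counts without a log transform, and the combinations shared the same libraries, so that rate is only a rough guide. Causes were not tested.

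In the control group replicate 7 stood high for HSPA8 (14057, others 11258 to 11648), SLC6A2 (31.1), CLN3 (333.6), PFKL (6660), ATP6V0D1 (1019) and CRABP1 (4082), and low for SLC7A11 (439.6, others 684.8 to 850.8). Control replicate 5 was high for GDF15 (603.4) and DBH (26.7), replicate 4 for GATA2 (17.2), replicate 3 for CPLX1 (220.0) and replicate 8 for ZIC4 (180.8) and GDF1 (392.6).

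Among the chlorpyrifos IC5 libraries, replicate 7 was high for GDF15 (286.7, others 18.1 to 27.5), replicate 5 for SLC1A5 (1561, others 650.0 to 729.5) and replicate 2 for GRIK4 (1548, others 86.3 to 226.5). Replicate 8 was high for PGBD2 (885.4, others 119.5 to 140.8), TH (659.9), SLC43A1 (54.3), NES (18823), HSPA5 (5572) and CRABP1 (3225). Replicate 4 was high for ATF3 (290.9) and SOX10 (11.4, where the others held at most 3.65) and low for VIM (52765), PSAP (9007) and DAGLA (403.1). Replicate 3 was high for FADS1 (6671) and FGFR3 (3311), and replicate 1 was high for DSCAM (635.7), HEYL (18.3) and NOTCH1 (8036) and low for CCNB1 (870.8).

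The direct limma test of chlorpyrifos IC5 against IC20/100 called 10 genes, a count that moved with the processing, as given below. The log2 difference was 1.98 for CPT1A, -0.46 for SREBF1, 0.29 for IGFBP5, -0.25 for ARRDC4, 0.24 for PTN, 0.23 for DSCAM, 0.21 for MAB21L2, 0.19 for EFNB2, 0.16 for NEFL and 0.13 for DUSP4.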

How the results depend on the processing

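The count of 3962 genes between chlorpyrifos IC5 and control ran from 3462 (without exposed replicate 8) to 4046 (without control replicate 7) when 1 library was left out. The count of 817 genes at 1.5-fold ran from 727 to 916, and it was 520 with a pseudocount of 10 and 498 with a minimum value of 50. The mitochondrial share difference ran from 0.323 to 0.378 percentage points.

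The direct counts moved more. Against chlorpyrifos IC20/100 (10 genes) they were 5 with no run term, 2 with only the groups compared, 16 in edgeR and 63 in DESeq2, and 7 to 12 with 1 library left out. Against fluoxetine (163) they were 97 with no run term, 26 with only the groups compared and 96 to 175 with 1 library left out, 96 without fluoxetine replicate 4 and 100 without exposed replicate 8. Against methylmercury (628) they were 406 with no filter, 1 with only the groups compared, 970 in DESeq2 and 409 to 866 with 1 library left out. Without methylmercury replicate 8, a choice made after seeing the data, the counts were 27, 395 and 409, and 4794 against control. With only the groups compared the fit had 9 residual degrees of freedom in place of 72, and the count against control was 3724. The cause of these shifts was not tested.

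With the replicate number as a block the counts were 3802 and, at 1.5-fold, 673 against control, and 1, 7 and 1 in the direct comparisons. Whether the numbers pair the libraries is not settled by these data. Same-numbered libraries of control and chlorpyrifos IC5 had weak correlations of 0.023 to 0.137, 2 of 8 over 0.1. Their median was 0.091, against -0.014 for libraries of different numbers, and 6 of 8 correlated best with their own number. Same-numbered libraries of these 2 groups also shared a sequencing run, so number and run cannot be told apart here.

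Of the 185 named genes called, 148 kept direction and call under every alternative and none reversed. Beside the genes that lost their call without a single library, those not called with only the groups compared were AXIN2, CSPG4, ME1, PPARD and TP53I3, and those not called with no run term were DLL1, PON2 and TUBB3. With the replicate block 18 were not called, with adjusted p of 0.0505 to 0.182, among them AXIN2, CSPG4, HEYL, ME1, MT1X, PPARD and TP53I3. In edgeR 8 were not called (adjusted p of 0.0522 to 0.108), which were ATP5MC1, CNP, GINS3, GRIK4, HEYL, HSPA1A, MCOLN1 and SLC6A2. DESeq2 did not call 6 of these (adjusted p of 0.0528 to 0.0925), all but GRIK4 and HSPA1A.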
